A study of Mus musculus with 58 samples.

Results

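Under tetrachloroethylene (PCE), Clic3, Slc34a2, Ptgds, Spink6, Defb1, Rnf180, Ccl28, Cldn9 and Smcp differed from vehicle in mouse liver, in mouse kidney or in both. These genes are 9 of the 24122 genes in the count tables, and they were chosen by their measured changes under PCE in these same libraries. Their PCE values are therefore given as a description without a test, and tests are given for trichloroethylene (TCE), whose dosed and vehicle libraries are separate. The working name of the set, genes lowered by PCE that diverge between tissues, holds for 1 tissue at a time: Clic3, Slc34a2, Ptgds and Spink6 were lower in liver, Rnf180, Ccl28, Cldn9 and Smcp were lower in kidney, and Defb1 was higher in liver with a small difference in kidney. Ccl28, Cldn9 and Smcp had too few liver counts for a liver response to be given. No member that had enough counts in both tissues was lower under PCE by more than 1 on the log2 scale in both. The members were chosen by these same PCE values, as genes that diverge between tissues. Their choice therefore favours this outcome, and nothing is read from it.

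RNA was sequenced from liver and kidney of male mice given 1 intragastric dose. The protocol names the B6C3F1/J hybrid strain, bought at 5 to 6 weeks of age, while another label names C57BL/6. PCE was given at 30, 100, 300 or 1000 mg/kg and TCE at 24, 80, 240 or 800 mg/kg, doses that the labels match between the solvents at roughly 0.22, 0.67, 2 and 6 mmol/kg. Each chemical has its own vehicle group, which received 5 mL/kg of saline with 5% of the surfactant Alkamuls EL-620, as the dosed mice did. The 58 libraries fall into 20 groups of 3, but 2 groups hold 2: PCE vehicle in kidney and 0.67 mmol/kg PCE in liver. Nothing in the labels ties a replicate to a separate animal, so p-values measure the spread between these libraries. The sample titles do not say whether a liver and a kidney came from the same mouse. Fits of both tissues treated all libraries as independent. A liver library held between 30932385 and 125880542 counts, and a kidney library between 23247565 and 32420329. In liver all 12 libraries of vehicle and 6 mmol/kg were deeper than the 17 of 0.22 to 2 mmol/kg, by the study's design.

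PCE and TCE are chlorinated solvents in which PCE carries chlorine at a position where TCE carries hydrogen. Both are oxidised by cytochrome P450 enzymes, mainly in liver, and both also enter glutathione conjugation, whose cysteine conjugates are processed further in the proximal tubule of the kidney. The members do not form a pathway. Several are products of epithelia that face a lumen: a defensin, a protease inhibitor, a chemokine, a claudin, a phosphate transporter and a prostaglandin synthase. Clic3 encodes a chloride intracellular channel protein, Rnf180 a ubiquitin ligase, and Smcp a cysteine-rich protein of sperm mitochondria.

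Clic3 and Ptgds, which were both low in liver at 6 mmol/kg, are neighbours on chromosome 2. In the GRCm38 build, Clic3 spans 25456843 to 25458777 and Ptgds 25466709 to 25470110, with 7931 bases between them. No annotated gene (0) lies wholly in that stretch, and Paxx (25455120 to 25462654) reaches into it. Rnf180 (105130567 to 105294818) and Ccl28 (119623819 to 119654359), which were low together in kidney, both lie on chromosome 13 but 14.3 Mb apart. Slc34a2 is on chromosome 5 (53049353 to 53071664), Smcp on chromosome 3 (92583866 to 92589073), Defb1 on chromosome 8 (21776555 to 21795185) and Cldn9 on chromosome 17 (23682584 to 23684026).

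The bases just before the start sites are shown for a liver group (Clic3, Ptgds, Slc34a2) and a kidney group (Rnf180, Ccl28, Smcp). The genes of each group were lower in that tissue at 6 mmol/kg PCE, and changes under PCE were what chose them. Each run is the 250 bases before a start site in RefSeq's GRCm38.p6 annotation, 5′ to 3′ on the gene's strand. Promoters were read for 6 of the 9 members, and Rnf180 has 2 entries. No entry was matched for Defb1 and Cldn9, and Spink6 was not read because its chromosome was left out of this step. Capitals mark matches to any of 6 motifs searched on both strands, which are the TATA box TATAAA, the GC box of Sp1 GGGCGG, the nuclear receptor half-site AGGTCA, the HNF1 half-site GTTAAT, the AP-1 site TGANTCA and the antioxidant response element core TGACNNNGC. The first 3 runs belong to genes lower in liver, and the others to genes lower in kidney.
Clic3 promoter, chr2:25456593-25456842, + strand: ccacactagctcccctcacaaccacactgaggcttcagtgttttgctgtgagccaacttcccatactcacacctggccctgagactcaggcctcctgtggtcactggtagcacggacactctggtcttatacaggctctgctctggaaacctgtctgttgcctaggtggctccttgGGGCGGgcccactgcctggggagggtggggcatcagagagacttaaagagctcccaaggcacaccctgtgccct
Ptgds promoter, chr2:25469750-25469999, - strand: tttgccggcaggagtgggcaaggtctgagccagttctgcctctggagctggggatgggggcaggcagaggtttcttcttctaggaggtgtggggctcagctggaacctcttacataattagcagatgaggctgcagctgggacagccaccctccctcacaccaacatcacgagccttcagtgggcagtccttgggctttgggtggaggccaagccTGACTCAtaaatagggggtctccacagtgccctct
Slc34a2 promoter, chr5:53049103-53049352, + strand: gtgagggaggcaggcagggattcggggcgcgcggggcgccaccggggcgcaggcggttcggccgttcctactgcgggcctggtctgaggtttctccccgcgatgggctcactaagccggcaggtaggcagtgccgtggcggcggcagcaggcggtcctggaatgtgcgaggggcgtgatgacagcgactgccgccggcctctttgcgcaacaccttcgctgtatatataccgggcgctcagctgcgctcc
Rnf180 promoter, entry 1, chr13:105293015-105293264, - strand: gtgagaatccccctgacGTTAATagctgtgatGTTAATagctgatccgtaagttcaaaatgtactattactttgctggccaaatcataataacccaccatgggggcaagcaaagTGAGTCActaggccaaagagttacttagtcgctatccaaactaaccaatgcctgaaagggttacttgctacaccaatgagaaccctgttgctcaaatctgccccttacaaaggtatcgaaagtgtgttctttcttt
Rnf180 promoter, entry 2, chr13:105294486-105294735, - strand: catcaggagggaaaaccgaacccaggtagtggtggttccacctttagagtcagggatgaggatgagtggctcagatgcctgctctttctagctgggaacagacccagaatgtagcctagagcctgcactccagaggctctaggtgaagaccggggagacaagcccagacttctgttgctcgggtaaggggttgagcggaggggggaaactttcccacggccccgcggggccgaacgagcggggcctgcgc
Ccl28 promoter, chr13:119623569-119623818, + strand: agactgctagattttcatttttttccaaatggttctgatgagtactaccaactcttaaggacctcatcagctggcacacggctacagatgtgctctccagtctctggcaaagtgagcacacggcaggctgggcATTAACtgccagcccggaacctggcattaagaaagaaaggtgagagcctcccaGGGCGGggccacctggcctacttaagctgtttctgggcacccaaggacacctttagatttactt
Smcp promoter, chr3:92589074-92589323, - strand: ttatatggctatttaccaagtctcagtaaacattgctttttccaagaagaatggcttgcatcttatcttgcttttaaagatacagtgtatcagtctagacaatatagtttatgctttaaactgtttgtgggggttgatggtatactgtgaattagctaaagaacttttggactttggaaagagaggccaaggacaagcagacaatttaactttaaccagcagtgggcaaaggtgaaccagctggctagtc

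No motif was shared by the 3 liver windows or by the 3 kidney genes. Clic3 and Ccl28, from different groups, each had the GC box, 74 and 64 bases before the start at its far end. The AP-1 site was found in Ptgds, 35 to 29 bases before the start, and in the first Rnf180 entry. The HNF1 half-site was found at 2 places in the first Rnf180 entry and, on the other strand, in Ccl28. Across 32851 RefSeq promoters of the same length, the GC box was present in 32.7%, the AP-1 site in 6.7% and the HNF1 half-site in 6.4%. The TATA box was present in 12.4%, the nuclear receptor half-site in 14.0% and the antioxidant response element core in 10.2%, and none of these 3 was found in the windows shown. A match is a description of the letters and not a site shown to be bound.

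The first question was where the members are expressed without solvent, and the TCE vehicle libraries give this from samples that the choice of members did not use. Levels are in CPM, counts scaled to a fixed library total, with TMM library-size normalisation over all 58 libraries. Clic3 was at 20.4, 24.6 and 25.6 CPM in liver and 2.12, 3.63 and 4.45 CPM in kidney. Slc34a2 was at 10.1, 12.9 and 12.9 CPM in liver and 4.66, 2.30 and 1.99 CPM in kidney. For both genes every liver library stood above every kidney library. The liver over kidney difference was 2.79 ± 0.39 (log2 ± SE, adjusted p = 4.3e-08, edgeR quasi-likelihood F test with Benjamini-Hochberg adjustment) for Clic3 and 2.01 ± 0.42 (adjusted p = 4.98e-05) for Slc34a2.

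The remaining members were kidney genes at baseline, apart from Ptgds. Defb1, the antimicrobial beta-defensin 1 of kidney and other epithelia, had 0.471 ± 0.106 CPM in liver and 163 ± 42.4 CPM in kidney (SD, n = 3 each), a difference of -8.41 ± 0.34 with edgeR adjusted p = 2.87e-25. Rnf180 had 0.192 ± 0.0865 CPM in liver and 5.91 ± 1.69 CPM in kidney, and Spink6, a Kazal-type protease inhibitor known in human skin as an inhibitor of kallikreins, had 0.119 ± 0.0710 CPM in liver and 2.97 ± 1.41 CPM in kidney (SD, n = 3 each). Those differences were -4.94 ± 0.57 and -4.64 ± 0.68, with edgeR adjusted p of 3.37e-10 and 9.77e-08. Ccl28, Cldn9 and Smcp were close to absent from liver: their 3 libraries together held 14, 1 and 1 counts in liver, against 15260, 107 and 1532 counts in kidney. Corrected for library size, the liver over kidney ratio was 0.0005 for Ccl28 (exact 95% interval 0.00027 to 0.00084), 0.0051 for Cldn9 (0.00013 to 0.029) and 0.00036 for Smcp (9e-06 to 0.002), intervals that cover counting error only.

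Ptgds, the lipocalin-type synthase that makes prostaglandin D2, was at 8.55, 4.19 and 6.62 CPM in liver and 3.75, 2.77 and 3.92 CPM in kidney, and its difference of 0.89 ± 0.56 was not called (adjusted p = 0.162). In all, 8 of the 9 members were called, 2 higher and 6 lower in liver, where 64.5% of the 14949 genes tested were called between the tissues. Ccl28, Cldn9 and Smcp entered this fit through their kidney counts alone, so for them a lower liver level was set by the filter. Calls between liver and kidney were common among all genes, so nothing further is read from the members' count.

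In liver, 6 of the 9 members had enough counts to be fitted with the 13174 genes tested. Ccl28, Cldn9 and Smcp were under the count filter, with at most 8, 2 and 3 counts in any of the 29 liver libraries, and no liver response is given for them. A floor of 3 counts corresponds to 0.0238 to 0.097 CPM in liver and 0.0925 to 0.129 CPM in kidney.

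**Figure D1:**
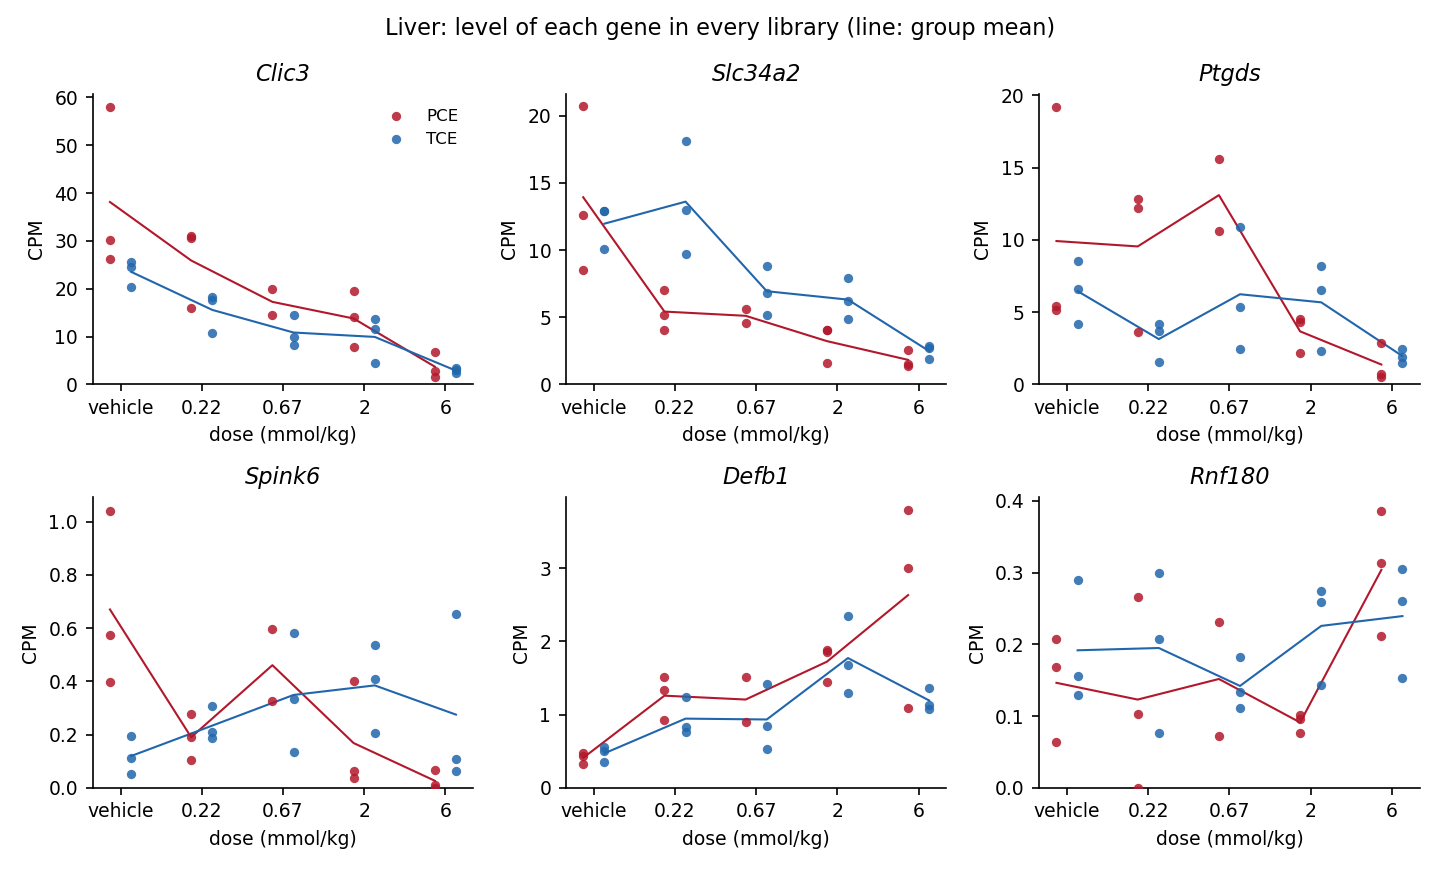
Level of 6 members in liver (CPM) by dose in mmol/kg, with PCE in red and TCE in blue. Points are libraries and lines join group means; Clic3 and Slc34a2 are lowest at 6 mmol/kg of both solvents, while Defb1 reaches 1.09 to 3.80 CPM at 6 mmol/kg PCE, against 0.320 to 0.471 CPM in vehicle.

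Clic3 had the lowest liver values at the top dose of both solvents. The 3 livers at 6 mmol/kg PCE had 1.45, 2.80 and 6.84 CPM, against 26.2, 58 and 30.2 CPM in PCE vehicle livers. Those at 6 mmol/kg TCE had 3.33, 2.32 and 2.95 CPM, against 20.4, 24.6 and 25.6 CPM in TCE vehicle livers. Dosed and vehicle livers did not overlap for either solvent. The difference was -3.34 ± 0.48 (log2 ± SE) for PCE, as a description, and -3.03 ± 0.48 for TCE, where Clic3 fell with edgeR adjusted p = 0.00206. Leaving out any of the 6 TCE libraries kept the TCE call, at -3.16 to -2.90.

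Clic3 was also lower at smaller doses. Mean levels under TCE were 23.6, 15.6, 10.9, 9.91 and 2.87 CPM from vehicle through 0.22, 0.67, 2 and 6 mmol/kg, with SDs of 2.77, 4.21, 3.21, 4.74 and 0.507. Under PCE they were 38.2, 25.9, 17.3, 13.8 and 3.69 CPM, with SDs of 17.3, 8.57, 3.7, 5.86 and 2.80. The order of the means follows the dose, but the libraries of neighbouring doses from 0.22 to 2 mmol/kg overlapped. Every TCE-dosed liver, from 0.22 mmol/kg up, was under every TCE vehicle liver, and under PCE this held from 0.67 mmol/kg up. Per dose step, Clic3 fell by 0.64 on the log2 scale under TCE (SE 0.10, edgeR adjusted p = 0.00781), and its slope under PCE was -0.72 ± 0.13.

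Slc34a2 encodes a sodium-dependent phosphate cotransporter best known from lung and small intestine. It had 1.37, 2.59 and 1.51 CPM in livers at 6 mmol/kg PCE, against 12.6, 8.51 and 20.7 CPM in PCE vehicle livers. Livers at 6 mmol/kg TCE had 1.86, 2.87 and 2.69 CPM, against 10.1, 12.9 and 12.9 CPM in TCE vehicle livers. The groups did not overlap for either solvent. Under TCE Slc34a2 fell by 2.27 on the log2 scale (SE 0.37, edgeR adjusted p = 0.00239; -2.39 to -2.11 without any 1 library), and under PCE its difference was -2.92 ± 0.38.

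The solvents gave different values for Slc34a2 at the lowest dose. At 0.22 mmol/kg PCE, livers had 7.05, 5.17 and 4.04 CPM, all under the PCE vehicle livers, for a difference of -1.37 ± 0.36. At 0.22 mmol/kg TCE they had 9.73, 13.0 and 18.1 CPM, which overlapped TCE vehicle livers, for a difference of 0.23 ± 0.35. The PCE response minus the TCE response was -1.60, with a 95% interval of -2.64 to -0.56, given as a description because PCE values chose the gene. At 6 mmol/kg it was -0.65 (-1.69 to 0.39). Per dose step Slc34a2 fell by 0.57 under TCE (log2, SE 0.09, edgeR adjusted p = 0.00781), and its slope under PCE was -0.67 ± 0.09.

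Of the 6 members fitted in liver, Clic3 and Slc34a2 were the 2 called lower at 6 mmol/kg TCE, where 0.767% of all genes tested were called lower. DESeq2 called 3 members, the third being Defb1. Across the TCE doses the same 2 were called lower of 5 members fitted, where 0.377% of 12452 genes were. Those 2 trend calls were lost when each library's slopes on GC content and transcript length were added as covariates, with values of -0.78 (adjusted p = 0.0914) for Clic3 and -0.60 (0.163) for Slc34a2; the calls at 6 mmol/kg were kept, at -3.38 (0.0109) and -2.14 (0.038). Far fewer of all genes were called in the liver TCE trend with these covariates as well. The part of GC content and length in the trends of these 2 genes was not tested. In bulk tissue, fewer cells of a type and less RNA per cell cannot be told apart, for these genes and for all that follow.

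At 6 mmol/kg Ptgds resembled its chromosomal neighbour Clic3 in liver but varied more between libraries of a group. Its level was 0.486, 0.748 and 2.88 CPM at 6 mmol/kg PCE, against 5.40, 19.2 and 5.16 CPM in PCE vehicle livers. With 6 mmol/kg TCE it was 2.47, 1.48 and 1.91 CPM, against 8.55, 4.19 and 6.62 CPM in TCE vehicle livers. Dosed livers lay below vehicle livers for both solvents, although replicate 2 of the PCE vehicle was far above the other two. The difference was -2.81 ± 0.67 under PCE, and -1.70 ± 0.65 under TCE, which was not called (edgeR adjusted p = 0.254). Without replicate 2 of the vehicle the PCE value was -1.96, and without replicate 3 of the PCE dose it was -3.94. The same libraries moved Clic3 to -2.94 and -4.12. Unlike those of Clic3, the Ptgds means did not follow the order of the doses. From vehicle to 6 mmol/kg they were 9.91, 9.56, 13.1, 3.67 and 1.37 CPM under PCE. Under TCE they were 6.45, 3.13, 6.25, 5.67 and 1.95 CPM. The slope per dose step was -0.69 ± 0.21 under PCE and -0.23 ± 0.15 under TCE, which was not called (edgeR adjusted p = 0.533).

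Spink6 was close to the detection floor in liver. Libraries of 6 mmol/kg PCE held 0, 6 and 1 counts, or 0, 0.0670 and 0.0125 CPM, against 80, 34 and 31 counts, or 1.04, 0.572 and 0.397 CPM, in PCE vehicle livers. Those of 6 mmol/kg TCE had 0.0638, 0.109 and 0.652 CPM, against 0.194, 0.0521 and 0.112 CPM in TCE vehicle livers. The PCE groups did not overlap, whereas the TCE groups did. The difference was -4.45 ± 0.90 under PCE and 1.22 ± 0.79 under TCE, which was not called (edgeR adjusted p = 0.635) and stood at -0.42 without replicate 3 of the TCE dose. The PCE vehicle livers were all above the TCE vehicle livers for Spink6, although both received the same vehicle. With both vehicle groups pooled, the value was -3.7 ± 1.01 under PCE and -0.52 ± 0.75 under TCE.

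Defb1 was higher in dosed livers. It had 3.80, 1.09 and 3.01 CPM at 6 mmol/kg PCE, against 0.440, 0.471 and 0.320 CPM in PCE vehicle livers. For 6 mmol/kg TCE the values were 1.13, 1.37 and 1.08 CPM, against 0.5, 0.560 and 0.353 CPM in TCE vehicle livers. Livers at 6 mmol/kg were all above vehicle livers for both solvents. Under PCE this held from the lowest dose, with means of 0.410, 1.26, 1.21, 1.72 and 2.63 CPM from vehicle to 6 mmol/kg. Under TCE the means were 0.471, 0.944, 0.933, 1.78 and 1.19 CPM, and libraries at 0.67 mmol/kg overlapped vehicle. The TCE slope was 0.36 ± 0.10 per dose step, which was not called (edgeR adjusted p = 0.107). The difference at 6 mmol/kg was 2.69 ± 0.39 under PCE and 1.34 ± 0.38 under TCE. The TCE value was not called in edgeR (adjusted p = 0.0992); it was called in DESeq2 (adjusted p = 0.0286).

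Rnf180, the ubiquitin ligase known in mouse for acting on monoamine oxidase A, had 0.386, 0.313 and 0.212 CPM in livers at 6 mmol/kg PCE, against 0.207, 0.168 and 0.0640 CPM in PCE vehicle livers. Those counts were 31, 28 and 17, against 16, 10 and 5. All 3 dosed livers were above the vehicle livers, but the difference of 1.07 has a 95% interval of -0.06 to 2.20. The TCE difference at that dose was 0.33 ± 0.55 (edgeR adjusted p = 0.921).

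As a background to the PCE values, 5.84% of all genes tested in liver were called at 6 mmol/kg PCE; nothing is read from the members' place among them, since that contrast chose them. The liver libraries at 6 mmol/kg PCE also differed from vehicle in their relation to GC content. The slope of log2 CPM per 10 percentage points of GC was -0.343 to -0.179 in PCE livers, against 0 to 0.217 in PCE vehicle livers, and -0.082 to 0.107 in TCE livers at that dose, against 0.103 to 0.251 in TCE vehicle livers. Clic3 (58.5% GC) and Ptgds (56.2%) are among the GC-rich members, whereas Defb1 (39.7%) is GC-poor. With slopes on GC and length as covariates, the liver differences under PCE were -3.27 ± 0.71 for Clic3, -2.84 ± 0.53 for Slc34a2, -4.28 ± 1.29 for Spink6, -2.01 ± 0.83 for Ptgds, 2.04 ± 0.58 for Defb1 and 1.8 ± 0.83 for Rnf180.

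In kidney all 9 members were fitted with 14216 genes. At 6 mmol/kg PCE, where 3.83% of genes were called, the 4 members lower in kidney were Rnf180, Ccl28, Smcp and Cldn9.

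**Figure D2:**
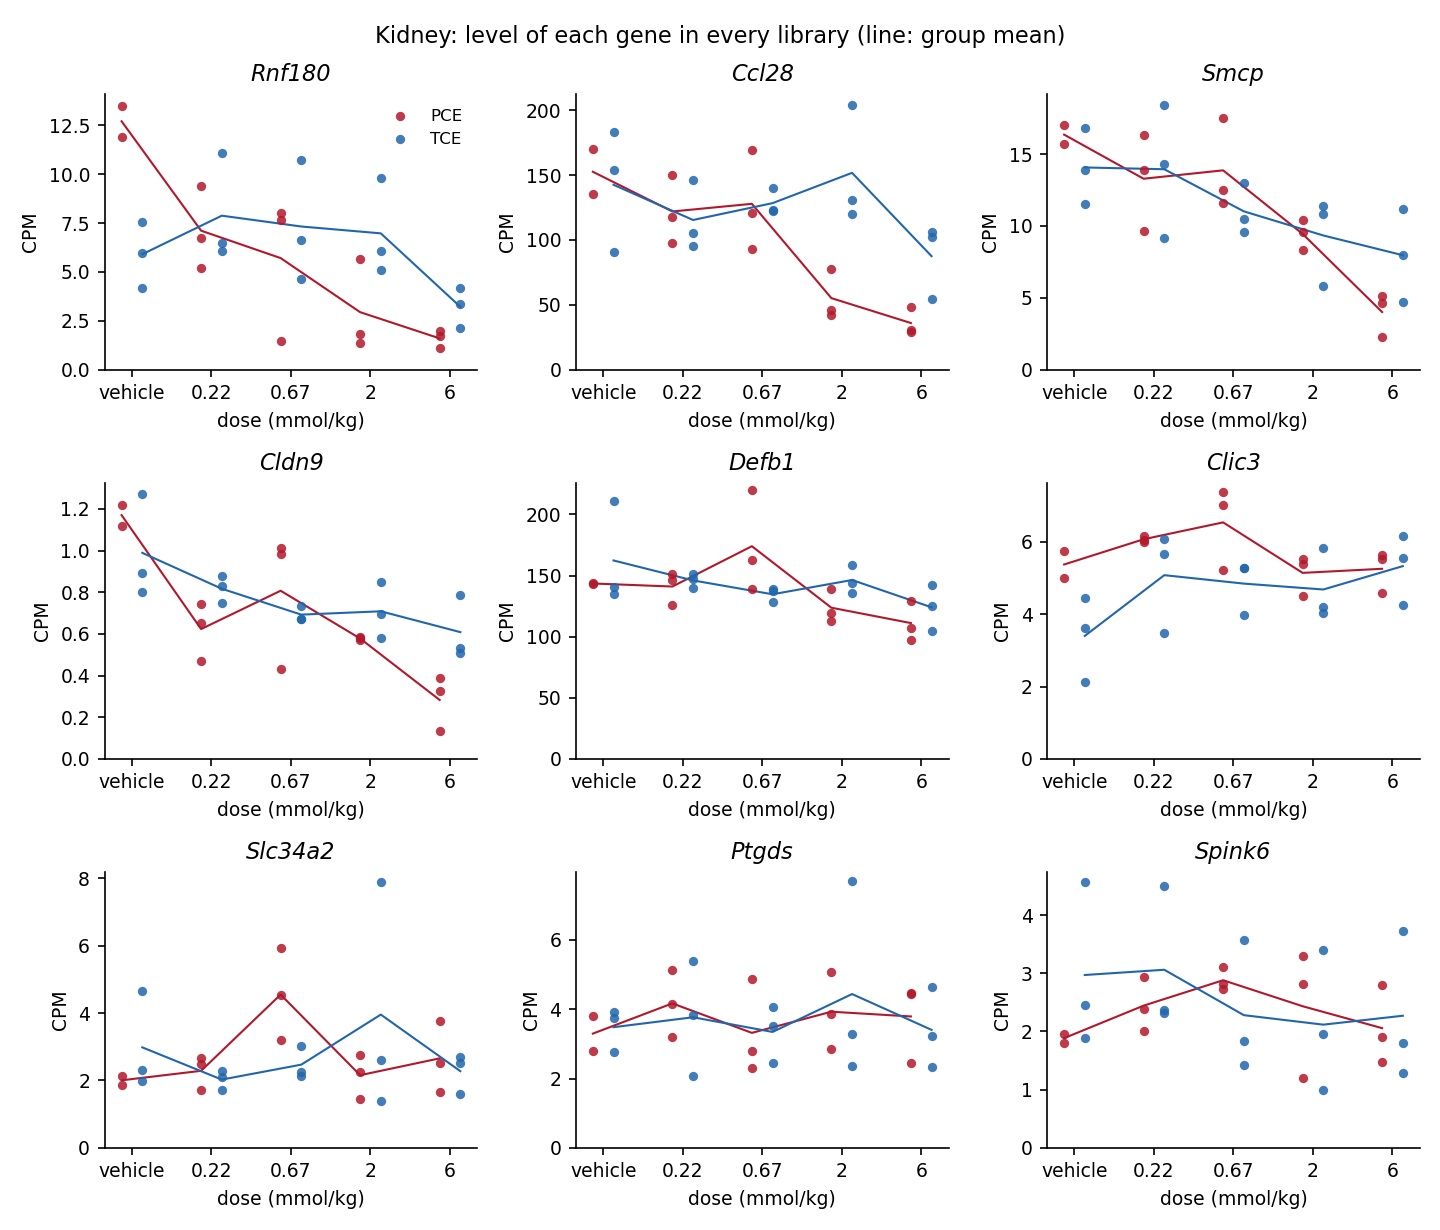
Level of the 9 members in kidney (CPM) by dose in mmol/kg, with PCE in red and TCE in blue; points are libraries and lines join group means. Rnf180, Ccl28, Cldn9 and Smcp lie lowest at 6 mmol/kg PCE, where Ccl28 is at 29.0 to 48.2 CPM, against 135 to 170 CPM in vehicle.

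Rnf180 had 1.11, 1.99 and 1.72 CPM in kidneys at 6 mmol/kg PCE, against 11.9 and 13.5 CPM in PCE vehicle kidneys. Kidneys at 6 mmol/kg TCE had 2.14, 3.36 and 4.16 CPM, against 7.56, 4.18 and 5.98 CPM in TCE vehicle kidneys. The groups did not overlap for either solvent, narrowly in the TCE comparison, and the PCE vehicle kidneys were above all TCE vehicle kidneys. Under PCE the means were 12.7, 7.11, 5.71, 2.95 and 1.61 CPM from vehicle through 0.22, 0.67, 2 and 6 mmol/kg. Within 0.67 mmol/kg PCE the values were 1.46, 7.67 and 8.00 CPM, and within 2 mmol/kg 5.67, 1.36 and 1.81 CPM, so that single libraries at the middle doses were already as low as those at the top dose. The difference at 6 mmol/kg was -2.95 ± 0.59 under PCE, or -2.40 ± 0.56 with both vehicle groups pooled, and -0.88 ± 0.53 under TCE, which was not called (edgeR adjusted p = 0.62).

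Ccl28 encodes a chemokine of mucosal surfaces that draws cells bearing CCR10 or CCR3. It had 29.0, 48.2 and 30.9 CPM in kidneys at 6 mmol/kg PCE, against 170 and 135 CPM in PCE vehicle kidneys. Its level at 6 mmol/kg TCE was 54.5, 106 and 102 CPM, against 183, 154 and 90.4 CPM in TCE vehicle kidneys. The PCE groups stood apart and the TCE groups overlapped. The difference was -2.07 ± 0.35 under PCE and -0.70 ± 0.31 under TCE (edgeR adjusted p = 0.445). Ccl28 was lower from 2 mmol/kg PCE, where kidneys had 77.5, 42.1 and 46.0 CPM and the difference was -1.46 ± 0.35, while libraries at 0.22 mmol/kg (97.8, 118 and 150 CPM) and 0.67 mmol/kg (93.4, 169 and 121 CPM) overlapped those of vehicle.

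Smcp had 2.25, 5.12 and 4.68 CPM in kidneys at 6 mmol/kg PCE, against 17.0 and 15.7 CPM in PCE vehicle kidneys. Under 6 mmol/kg TCE it had 4.71, 7.99 and 11.2 CPM, against 13.9, 16.8 and 11.5 CPM in TCE vehicle kidneys. Neither pair of groups overlapped. The difference was -2.0 ± 0.36 under PCE and -0.82 ± 0.32 under TCE (edgeR adjusted p = 0.337). Smcp is known from sperm. The 11 markers of epididymis and testis summed to 0.0543 to 0.0931 CPM in kidneys at 6 mmol/kg PCE, against 0.0661 to 0.132 CPM in PCE vehicle kidneys, and 11 and 10 of them were under 0.1 CPM in every library of those groups.

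Cldn9, a claudin of tight junctions, rested on few counts: 5, 18 and 14 in kidneys at 6 mmol/kg PCE, against 46 and 51 in PCE vehicle kidneys. These are 0.136, 0.386 and 0.326 CPM, against 1.22 and 1.12 CPM. The 3 kidneys at 6 mmol/kg TCE had 0.508, 0.531 and 0.786 CPM, against 1.27, 0.803 and 0.894 CPM in TCE vehicle kidneys. Dosed kidneys were below vehicle kidneys in both comparisons, and under PCE this held at all 4 doses. The difference at 6 mmol/kg was -2.0 ± 0.33 under PCE and -0.70 ± 0.29 under TCE (edgeR adjusted p = 0.391).

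The other 5 members differed less from vehicle in kidney. Clic3 had 5.64, 4.59 and 5.54 CPM at 6 mmol/kg PCE, against 5.00 and 5.75 CPM in PCE vehicle kidneys, a difference of -0.02 with a 95% interval of -0.53 to 0.49. Defb1 had 97.3, 129 and 107 CPM at 6 mmol/kg PCE, against 144 and 143 CPM in PCE vehicle kidneys, a difference of -0.35 ± 0.17. Spink6, Slc34a2 and Ptgds were at 0.14 ± 0.52, 0.42 ± 0.51 and 0.21 ± 0.45 under PCE. The 95% intervals of those 3 lay between -0.95 and 1.48, and each included 0. At 0.67 mmol/kg PCE, Slc34a2 had 5.92, 4.53 and 3.20 CPM in kidney, all above the 2.14 and 1.87 CPM of PCE vehicle kidneys, a difference of 1.18 (0.11 to 2.25).

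In kidney at 6 mmol/kg TCE, 0 of the 9 members were called by edgeR, where 0.176% of all genes tested were called. At an unadjusted p under 0.05 there were 5 of the 9, against 1439 of 14216 genes, and DESeq2 called 0 members. Across the TCE doses 0 of 9 were called, where 0% of 13702 genes were called by edgeR. An unadjusted p under 0.05 was found for 3 members, against 1243 of 13702 genes, and DESeq2 called 0 members. The steepest TCE slopes in kidney were those of Smcp, at -0.22 ± 0.07 per dose step (edgeR adjusted p = 0.277), and Rnf180 and Cldn9, at -0.17 ± 0.11 (0.695) and -0.16 ± 0.05 (0.287). The PCE slopes, as a description, were -0.71 ± 0.14 for Rnf180, -0.55 ± 0.10 for Ccl28, -0.45 ± 0.09 for Smcp and -0.39 ± 0.10 for Cldn9, and -0.10 to 0.05 for the rest.

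**Figure D3:**
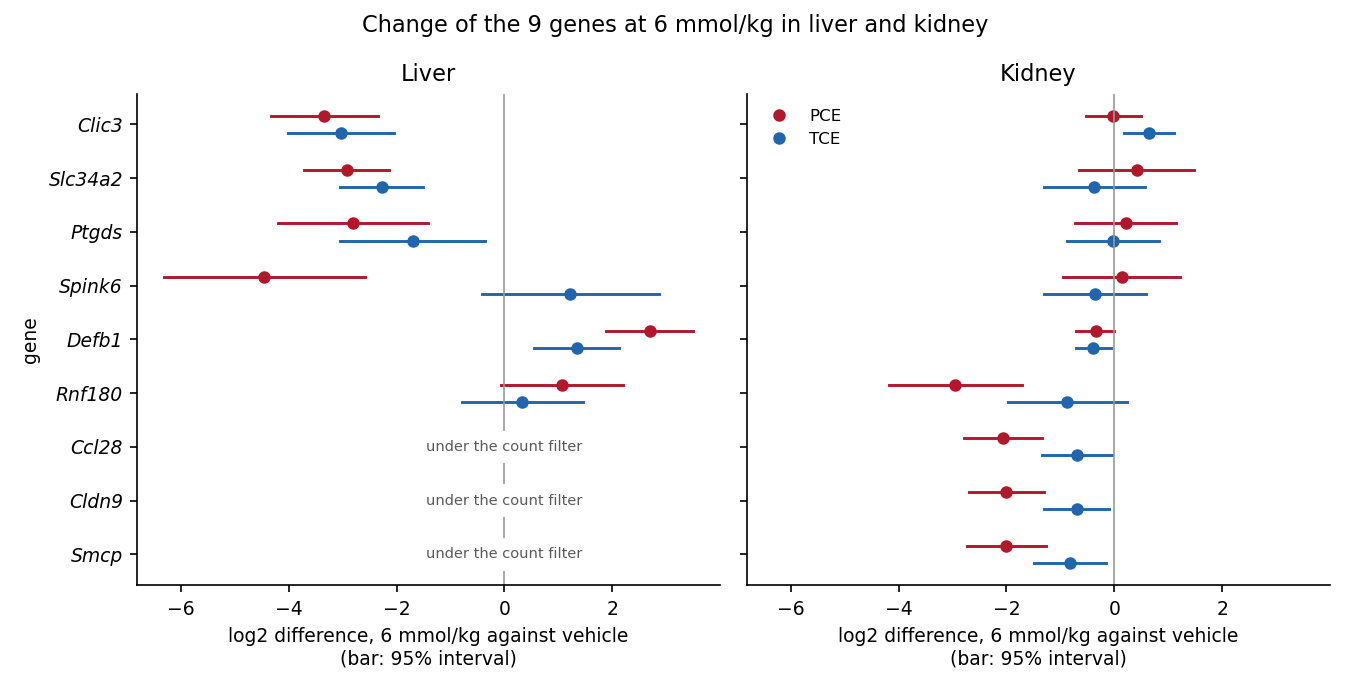
Log2 difference from vehicle at 6 mmol/kg with its 95% interval, for PCE and TCE, in liver and in kidney. Ccl28, Cldn9 and Smcp had too few liver counts; Clic3 and Slc34a2 lie far below 0 under both solvents in liver, at -3.34 and -2.92 under PCE, while their intervals under PCE in kidney include 0.

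Whether the TCE response differed between the tissues was tested in a single fit of 58 libraries. That fit took liver and kidney libraries as independent, and a possible sharing of mice between the tissues was not modelled. The liver response minus the kidney response was -3.68 ± 0.54 for Clic3 (edgeR adjusted p = 0.000426), and leaving out any of the 12 libraries kept the call, at -3.92 to -3.44. For Defb1 it was 1.72 ± 0.39 (edgeR adjusted p = 0.0307). These 2 of 9 members were called, where 0.328% of 14949 genes were called. Among the 9, Ccl28, Cldn9 and Smcp passed the filter through kidney counts alone and had too few liver counts to show a liver response. The Defb1 call was lost without 7 of the 12 libraries in turn, with values of 1.47 to 1.87 and adjusted p of 0.0204 to 0.186: these were all 3 livers at 6 mmol/kg, replicate 3 of the vehicle livers, replicates 1 and 2 of the kidneys at 6 mmol/kg and replicate 2 of the vehicle kidneys. It was also lost with the replicate number as a block (1.71, adjusted p = 0.0509) and with slopes on GC and length as covariates (1.47, adjusted p = 0.162). Slc34a2 was at -1.89 ± 0.58 (adjusted p = 0.166) and Ptgds at -1.69 ± 0.79 (0.52), neither called.

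Under PCE the same quantity, as a description, was -3.33 ± 0.58 for Clic3, -3.33 ± 0.64 for Slc34a2, -3.05 ± 0.87 for Ptgds and -4.58 ± 1.04 for Spink6, against 3.05 ± 0.40 for Defb1 and 4.02 ± 0.79 for Rnf180. The low liver counts of Ccl28, Cldn9 and Smcp leave this difference without use for them.

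The solvents were set side by side at matched molar doses in 15 pairs of values at 6 mmol/kg, 6 in liver and 9 in kidney, with no test. In liver the PCE response minus the TCE response was -0.30 for Clic3 (95% interval -1.60 to 1.00) and -1.11 for Ptgds (-2.97 to 0.75), intervals wide enough to hold both no difference and a large one. It was 1.35 for Defb1 (0.24 to 2.46) and -5.68 for Spink6 (-8.17 to -3.19). In kidney it was -2.07 for Rnf180 (-3.72 to -0.42), -1.37 for Ccl28 (-2.34 to -0.39), -1.30 for Cldn9 (-2.22 to -0.37) and -1.18 for Smcp (-2.17 to -0.19). With both vehicle groups pooled, Rnf180 was at -0.98 ± 0.60 and Spink6 at -3.18 ± 1.09. Over all genes, edgeR called 0 such differences in liver and 3 in kidney at this dose (unadjusted p under 0.05 for 1169 and 1086).

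The neighbourhood of Clic3 and Ptgds on chromosome 2 was examined after their positions were seen. Of 10 other genes within 50 kb of either, 6 were tested in each tissue. Paxx, a factor of DNA end joining, spans Clic3 in the RefSeq annotation (25455120 to 25462654). In the GENCODE annotation Paxx is on the opposite strand, without shared exonic bases. It had 13.6, 21.2 and 35.2 CPM in livers at 6 mmol/kg PCE, against 78.0, 144 and 77.7 CPM in PCE vehicle livers. The groups did not overlap, and the difference was -2.07 ± 0.37 (edgeR adjusted p = 0.00422). Lcn12 (-1.66 ± 0.38, adjusted p = 0.0163), the transporter gene Abca2 (-0.83 ± 0.18, 0.0139) and the complement gene C8g (-0.61 ± 0.13, 0.0139) were called lower as well, so 4 of 6 neighbours were called lower in liver under PCE and 0 higher, where 3.56% of all genes tested were called lower. With slopes on GC content and length as covariates 0 of the 6 were called, with Paxx at -1.64 ± 0.43 (edgeR adjusted p = 0.0811) and C8g at -0.65 ± 0.18 (0.0853). Far fewer of all liver genes were called under PCE with these covariates as well. The GC slopes of livers at 6 mmol/kg PCE and of PCE vehicle livers did not overlap, so these covariates cannot be separated from the dose.

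Under 6 mmol/kg TCE, Paxx had 27.6, 30.4 and 32.1 CPM, against 88.1, 60.8 and 52.7 CPM in TCE vehicle livers, a difference of -1.15 ± 0.36 that was not called (edgeR adjusted p = 0.145). Abca2 was the 1 neighbour called lower (-0.80 ± 0.18, adjusted p = 0.0291), and with the GC and length slopes it was not called (-0.48 ± 0.18, 0.316). In kidney 0 of 6 neighbours were called by edgeR or DESeq2 under either solvent, with 1 at an unadjusted p under 0.05 under TCE and 0 under PCE, and their differences ran from -0.32 to 0.06. The strand setting of the counting is not stated in the labels or headers, so reads of Clic3 and Paxx may not have been told apart, and both levels are uncertain. Long non-coding genes that are not in the count tables overlap Smcp (Gm35639, 5208 bases) and Rnf180 (Gm52064, 81469 bases). Their part in the counts of Smcp and Rnf180 was not tested.

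**Figure D4:**
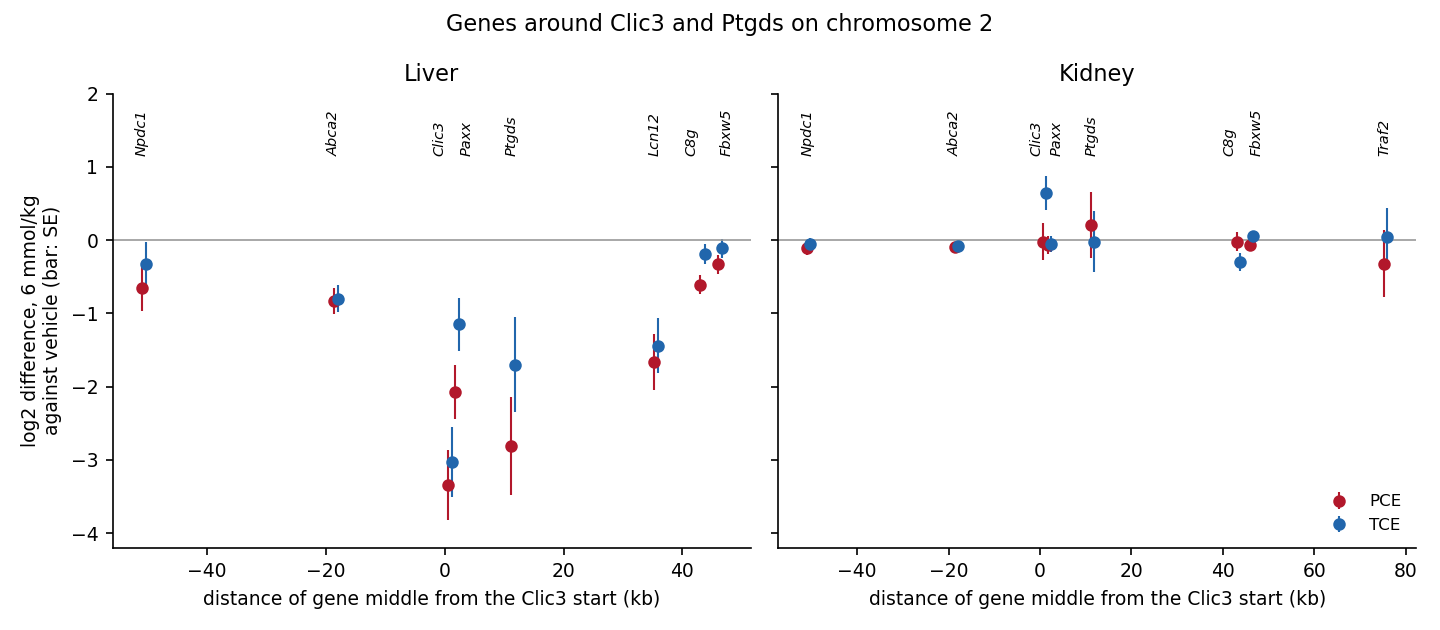
Log2 difference from vehicle at 6 mmol/kg (± SE) for genes within 50 kb of Clic3 or Ptgds, against distance from the start of Clic3 in kb, in liver and in kidney. In liver the points under PCE lie below 0, down to -3.34 for Clic3, while the kidney points lie between -0.32 and 0.64.

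Across the 29 liver libraries, log2(CPM + 0.5) of Clic3 and Ptgds had a Pearson r of 0.82. For Clic3 and Slc34a2 it was 0.69, and for Slc34a2 and Ptgds 0.43. Defb1 ran opposite to Slc34a2, with r = -0.75, and to Clic3, with r = -0.59. In kidney r was 0.85 for Rnf180 and Ccl28, 0.78 for Ccl28 and Smcp and 0.74 for Cldn9 and Smcp, while Clic3 and Ptgds had r = 0.00. These correlations share libraries, depth and the doses that chose the members, so they are a description.

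**Figure D5:**
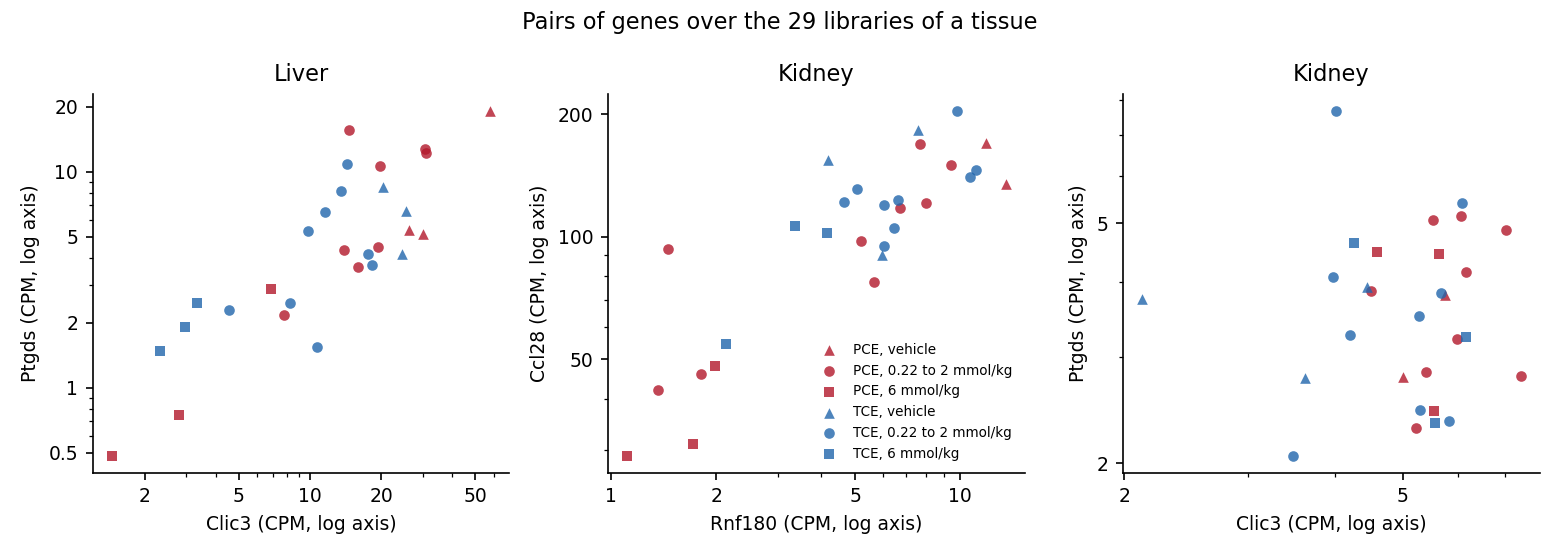
Pairs of members across 29 libraries of a tissue, as CPM on log axes: Clic3 and Ptgds in liver (r = 0.82), Rnf180 and Ccl28 in kidney (r = 0.85), and Clic3 and Ptgds in kidney (r = 0.00). Each r is from log2(CPM + 0.5). Each point is a library.

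The search for like genes took fitted genes with a mean of at least 1 CPM, leaving out the members and genes with predicted names. Among the 9863 such genes in liver, the gene most like Clic3 across the 29 libraries was Paxx (r = 0.90). Paxx was also most like Ptgds (r = 0.91). Slc34a2 was most like the manganese transporter gene Slc30a10 (r = 0.86), Defb1 like Epc2 (0.83), Spink6 like Serpina9 (0.70) and Rnf180 like Kcnj8 (0.68). Among 10366 kidney genes taken in the same way, Smcp was most like Cyp2j13 (r = 0.93) and Ccl28 like Bsdc1 (0.91). Rnf180 was most like the alcohol dehydrogenase gene Adh1 (0.86), Cldn9 like Fbxo25 (0.85) and Defb1 like Erp29 (0.84). Spink6 was most like Serpina1f (0.87), Ptgds like Myo3b (0.81) and Slc34a2 like Rgs3 (0.73). Clic3 in kidney was most like Nphs1 (r = 0.87), which encodes nephrin of the podocyte slit diaphragm. Its r with the summed level of 6 podocyte markers was also 0.87, over sums of 94.2 to 316 CPM, and the library with the lowest sum, a TCE vehicle kidney, also had the lowest Clic3.

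The relatives and partners of the members were read from 9 lists of other genes. In liver at 6 mmol/kg TCE, edgeR called 0 of 71 listed genes (12 at an unadjusted p under 0.05, 1 by DESeq2) and 0 of 93 in kidney (10 and 0). Over all genes, 1544 of 13174 in liver and 1439 of 14216 in kidney had an unadjusted p under 0.05. Under 6 mmol/kg PCE edgeR called 3 lower and 2 higher of 93 in kidney, where 3.83% of all genes tested were called. It called 2 lower and 0 higher of 71 in liver, where 5.84% were called, and nothing further is read from these counts. Among 12 claudins tested there, Cldn3 fell, with 80.5, 127 and 104 CPM at 6 mmol/kg PCE, against 206, 219 and 195 CPM in PCE vehicle livers (-0.97 ± 0.23, edgeR adjusted p = 0.0191). The median of those claudins was -0.07, and that of all genes 0.00. With slopes on GC content and length as covariates, far fewer of all liver genes were called under PCE. Values with these covariates are not given for the list and marker genes called in liver, Cldn3, Slc9a3r1 and Cela1 included.

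Among 10 genes of phosphate transport in liver, Slc9a3r1, a scaffold that holds phosphate transporters at the apical membrane, was the 1 called (-0.55 ± 0.15, edgeR adjusted p = 0.0303), and it also fell in kidney under PCE (-0.49 ± 0.11, adjusted p = 0.0103), as 1 of 13. Among 13 defensins and epithelial defence genes in kidney, Defb29 and Defb19 fell under PCE. Defb29 had 21.8, 21.6 and 27.4 CPM at 6 mmol/kg, against 50.3 and 48.5 CPM in PCE vehicle kidneys (-1.05 ± 0.14, edgeR adjusted p = 0.000215), and Defb19 was at -1.06 ± 0.27 (0.0246). The list's median was 0.19, against 0.03 for all genes in kidney. Cldn1, of 17 claudins, rose under PCE in kidney (0.83 ± 0.23, edgeR adjusted p = 0.0392), as did Cbr1, a carbonyl reductase that acts on prostaglandins, of 20 prostaglandin genes (0.55 ± 0.14, 0.028). No gene of the chloride intracellular channel, Kazal and kallikrein, chemokine, sperm or serotonin lists was called by edgeR in these 4 comparisons.

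The labelled tissues carried their markers: the 8 hepatocyte markers summed to 181150 to 223971 CPM in livers at 6 mmol/kg PCE, against 172888 to 196154 CPM in PCE vehicle livers. Of these 8, Ass1 fell under PCE (-1.13 ± 0.33, edgeR adjusted p = 0.0464) and Fgb under TCE (-1.01 ± 0.25, 0.0477). In livers under PCE, Adgre1, of 9 macrophage markers, rose (1.42 ± 0.41, edgeR adjusted p = 0.0414). Dcn, of 8 stellate cell and fibroblast markers tested, rose as well (1.30 ± 0.26, 0.00789). Bile duct markers, of 15 listed genes, summed to 16.5 to 19.1 CPM in livers at 6 mmol/kg PCE, against 20.1 to 25.1 CPM in PCE vehicle livers, and to 11.5 to 17.0 CPM at 6 mmol/kg TCE, against 22.3 to 26.5 CPM in TCE vehicle livers. Of the 9 tested, Sox9 fell under TCE (-1.16 ± 0.24, edgeR adjusted p = 0.0168) and 0 were called under PCE; Prom1 was under 0.1 CPM in every group. Pancreas acinar markers summed to 18.4 to 43.7 CPM in livers at 6 mmol/kg PCE, against 84.4 to 92.7 CPM in PCE vehicle livers, with Cela1 lower (-1.42 ± 0.25, edgeR adjusted p = 0.00416), but 6 of the 9, Prss1, Cpa1 and Pnlip included, were under 0.1 CPM throughout. The part of these cells in the liver values of Clic3, Slc34a2 and Ptgds was not tested.

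In kidney at 6 mmol/kg PCE the 8 proximal tubule markers summed to 12107 to 14785 CPM, against 16386 to 16469 CPM in PCE vehicle kidneys, and 1 of the 8, Slc7a13, a transporter of the late proximal tubule, fell (-1.21 ± 0.20, edgeR adjusted p = 0.00117); it also fell under TCE (-0.96 ± 0.18, adjusted p = 0.0236). Distal convoluted tubule markers summed to 673 to 972 CPM, against 1117 to 1168 CPM, with 0 of 8 called, and thick ascending limb markers to 1019 to 1210 CPM, against 817 to 914 CPM, with 0 of 7 called. Collecting duct principal cell markers summed to 446 to 536 CPM at 6 mmol/kg PCE, against 543 to 582 CPM in vehicle, and 1 of the 8, Hsd11b2, the cortisol-inactivating enzyme of those cells, fell (-0.40 ± 0.11, edgeR adjusted p = 0.0492). Fat markers summed to 25.1 to 307 CPM, against 15.9 to 52.7 CPM, and urothelium markers to 0.900 to 6.63 CPM, against 0.815 to 1.06 CPM, with 0 of 8 called in each list. The part of these shifts in the kidney values of Rnf180, Ccl28, Smcp and Cldn9 was not tested.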

How the data were processed

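The authors deposited 1 table per tissue of raw counts of reads, by RefSeq transcript, without normalization and with replicates kept apart, per the file headers. In the deposited tables the columns at 0.22 and 0.67 mmol/kg carry a decimal dose line and were read under the unit expected counts; every value was whole, so rounding left them alone. Build mm10 and the tools HTSeq, TopHat2 2.0.10 and CASAVA 1.8.2 are listed in the submitters' processing notes. For the strand setting and the time from dose to sampling: not given in the sources used here. Reads in the ambiguous line (19.7 to 22.6% of a library) and the line without a feature (14.3 to 27.5%) were left out.

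Counts of 33392 transcripts were summed to 24122 genes; each member has 1 transcript. All 56 replicate pairs differed by more than sampling noise (chi-square over its degrees of freedom 14.6 or more). Genes passing filterByExpr were fitted in edgeR 4.0.16 (R 4.3.3) with TMM normalization, 1 mean per group, a robust quasi-likelihood fit and two-sided F tests, with the 10 groups of a tissue in 1 fit, dose trends on the dose rank within 1 chemical, and the tissues in 1 fit of 58 libraries. A call is a Benjamini-Hochberg adjusted p under 0.05. SE is the absolute log2 difference over the square root of F. The self-test ran on simulated data. Members and gene lists were chosen with earlier results of these data known. Named are the members, up to 3 called genes of each list with the smallest adjusted p, and the gene most like each member; neighbours and markers were named after their values were seen. Alternatives were DESeq2 1.42.0, its size factors, no count filter, the replicate number as a block, slopes on GC content and length, other libraries or vehicles in the fit, another dose scale, and each library left out. Replicate numbers did not pair dosed with vehicle libraries within a tissue, and pairing between liver and kidney was not examined.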

Additional observations from a re-analysis of the deposited data

Results flagged for a closer look

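The response to 6 mmol/kg TCE differed between liver and kidney for 2 members by the test of the difference itself. Clic3 differed by -3.68 on the log2 scale, liver minus kidney, with -3.03 in liver and 0.64 in kidney (edgeR adjusted p = 0.000426); the kidney value was not called (adjusted p = 0.284). Across kidney libraries Clic3 had an r of 0.87 with the sum of podocyte markers, and the TCE vehicle kidney with the lowest sum, 94.2 CPM, had the lowest Clic3; the part of podocytes in the difference was not tested. Defb1 differed by 1.72, with 1.34 in liver and -0.39 in kidney (edgeR adjusted p = 0.0307), and neither of its single-tissue values was called by edgeR. The Defb1 call was lost without 7 of the 12 libraries in turn (adjusted p of 0.0204 to 0.186 over the 12), with the replicate block (0.0509) and with slopes on GC content and length (0.162).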

How the results depend on the processing

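Of 1632 values of the members under another setting, 1486 kept their direction and their side of the threshold or moved by less than the spread, and 146 changed. The sign turned for 33 of the 1632, 0 of which were called by edgeR in the fit reported, and Spink6 under TCE in liver was among them. Counts of genes called moved more. DESeq2 called 346 genes in liver and 160 in kidney at 6 mmol/kg TCE (edgeR 172 and 25), 1516 and 862 at 6 mmol/kg PCE (edgeR 770 and 545), 443 and 139 for the TCE trends (edgeR 106 and 0) and 189 for the TCE difference between tissues (edgeR 49). With slopes on GC content and length as covariates these counts were 61 and 47, 16 and 878, 1 for the liver trend, and 28. Without a count filter 461 were called in liver under PCE, 11 in kidney under TCE and 1 for the kidney trend. With the chemical's own libraries alone, TCE gave 43 in liver, 11 in kidney and 29 between tissues. With both vehicle groups pooled, TCE gave 103 and 43 and PCE 1613 and 1359.

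Leaving out 1 library gave 28 to 224 genes in liver and 0 to 55 in kidney at 6 mmol/kg TCE, 56 to 868 and 62 to 841 at 6 mmol/kg PCE, 22 to 228 and 0 to 36 for the TCE trends, 14 to 137 between tissues and 9018 to 9459 for the vehicle level. Within a tissue, replicate numbers did not pair dosed with vehicle libraries: the correlation of same-numbered libraries ran from -0.31 to 0.20. Pairing between liver and kidney was not examined. With the replicate block the liver TCE trend called 68 genes, 127 were called in liver and 23 in kidney at 6 mmol/kg TCE, and 41 between tissues. Liver depth differed with dose, and 2 groups have 2 libraries; where leaving out 1 left a single vehicle kidney, it was assumed to vary like the other groups.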
